A study of Mus musculus with 10 samples.

Results

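The pacemaker and conduction tissue genes were 9 genes, chosen by name: the pacemaker channel genes Hcn4 and Hcn2, the calcium channel genes Cacna1g and Cacna1d, the transcription factor genes Tbx3, Tbx18, Shox2 and Isl1, and the connexin gene Gja5. They were found in the count table by their Ensembl identifiers in the GENCODE M21 annotation of GRCm38, and are 9 of the 51789 genes listed. The RNA came from cardiomyocytes isolated on day 4 after myocardial infarction (MI), with 5 libraries from TgGRK5-MI mice and 5 from NLC-MI mice. TgGRK5 mice overexpress the G protein-coupled receptor kinase GRK5 in cardiomyocytes, and NLC mice are their littermates without the transgene. Both groups had a permanently occluded coronary artery according to the study's methods, so the controls carry the infarct too, and no libraries of hearts without an infarct were analysed here. The age and sex of the mice behind these libraries are not given in the labels. For its follow-up of cardiac function the paper states an age range and the use of both sexes, without tying either to these libraries. The promoter that drives the transgene is not given in the sources used here. The comparison asks how a high cardiomyocyte level of GRK5 goes with the expression of these genes early after MI.

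The heartbeat starts in the sinoatrial node, where cells depolarize on their own. The HCN channels carry the inward current that opens this depolarization, and Hcn4 is the main form in the node. T-type and L-type calcium channels add to the upstroke, and the transcription factors Tbx3, Tbx18, Shox2 and Isl1 set up or maintain the node in development. The connexin made from Gja5 couples cells of the atria and of the fast conduction system, and is also made by arterial endothelium. Working ventricular muscle of the adult makes little Hcn4, and diseased ventricular muscle is known to make more of it.

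The start regions of the genes for both pacemaker channels are printed because these genes encode channels of the same current and are set side by side below. They are RefSeq windows on GRCm38.p6 of 300 bases, from 250 before the start to 50 after it, read on the strand of the gene. Capitals mark the T-box core AGGTGT and the GC box GGGCGG, each searched on both strands.
Hcn4 (chr9:58822699-58822998, plus strand): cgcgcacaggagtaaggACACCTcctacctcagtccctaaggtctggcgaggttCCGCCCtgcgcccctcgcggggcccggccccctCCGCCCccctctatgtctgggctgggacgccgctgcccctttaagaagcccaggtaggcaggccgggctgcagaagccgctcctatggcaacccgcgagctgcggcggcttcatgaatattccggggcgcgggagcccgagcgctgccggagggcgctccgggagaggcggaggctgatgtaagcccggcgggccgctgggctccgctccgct
Hcn2 (chr10:79716384-79716683, plus strand): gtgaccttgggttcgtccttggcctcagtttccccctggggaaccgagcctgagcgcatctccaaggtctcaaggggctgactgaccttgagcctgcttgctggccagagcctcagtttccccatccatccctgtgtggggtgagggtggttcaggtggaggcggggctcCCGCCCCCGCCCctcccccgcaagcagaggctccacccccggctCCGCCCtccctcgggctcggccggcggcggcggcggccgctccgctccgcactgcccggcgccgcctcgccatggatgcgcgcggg
The Hcn4 window held 1 T-box core, read on the minus strand, and 2 GC boxes, and its GC content was 71.7%. The Hcn2 window held no T-box core and 3 GC boxes, 2 of which adjoin, and its GC content was 72.3%. The RefSeq start of Hcn4 lies upstream of the GENCODE start, and that of Hcn2 matches it. The table gave windows for 7 of the 9 genes, 8 windows in all. The T-box core was found in 1 of the 7 genes and in 13.7% of the 32851 windows of the table. The longer T-box letters AGGTGTGA, which contain the core, were found in 0 of the 7 genes and in 1.28% of all windows. The GC box was found in 5 of the 7 genes and in 35.7% of all windows. These matches describe the letters of the windows and say nothing about binding in these cells.

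Depth ranged from 7968779 counts (NLC-MI replicate 3) to 23381527 counts (NLC-MI replicate 2). A gene with 3 counts, taken as the floor of the depth in a library, lay between 0.121 and 0.393 CPM, the unit of counts scaled to the effective library size. Grk5, the gene of the transgene's protein, averaged 60.4 CPM in the NLC-MI libraries against 1222 CPM in the TgGRK5-MI libraries (SD 9.50 and 472, n = 5 per group), without overlap. All 8 ventricular cardiomyocyte markers (among them Myl2, Irx4 and Hey2) passed the filter on low counts. Of these, 0 had an unadjusted p under 0.05 in edgeR's quasi-likelihood test, where 3.85% of all genes tested did. NLC-MI replicate 3, TgGRK5-MI replicate 3 and TgGRK5-MI replicate 4 had the fewest counts. The atrial gene Bmp10 was at 30.9 CPM in NLC-MI replicate 5 and 5.64 CPM in TgGRK5-MI replicate 1, and at 1 count or fewer in each of the other libraries. Hcn4 and Cacna1g are given below without each of these sets of libraries, and the count of the wider gene list without those holding Bmp10.

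Per length of exon, as TPM (transcript counts per exon length, scaled to the same sum in every library), Hcn2 had the highest level of the 9 genes, at 12.9 ± 4.32 TPM (SD, n = 10 libraries). Below it came Tbx18 at 6.36 ± 3.24 TPM, Gja5 at 4.93 ± 1.70 TPM, Tbx3 at 4.13 ± 1.30 TPM and Cacna1g at 3.13 ± 0.908 TPM. The lowest levels were those of Hcn4 at 1.88 ± 1.37 TPM, Shox2 at 0.950 ± 0.459 TPM, Cacna1d at 0.802 ± 0.326 TPM and Isl1 at 0.0630 ± 0.0721 TPM. In this order every gene overlapped the next in its range over the libraries, except Cacna1d, which lay above Isl1 in 10 of 10 libraries. With the length of the longest transcript in place of all exons, Gja5 (5.89 TPM) came above Tbx18 (4.89 TPM) and Cacna1d (0.799 TPM) above Shox2 (0.779 TPM).

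**Figure D1:**
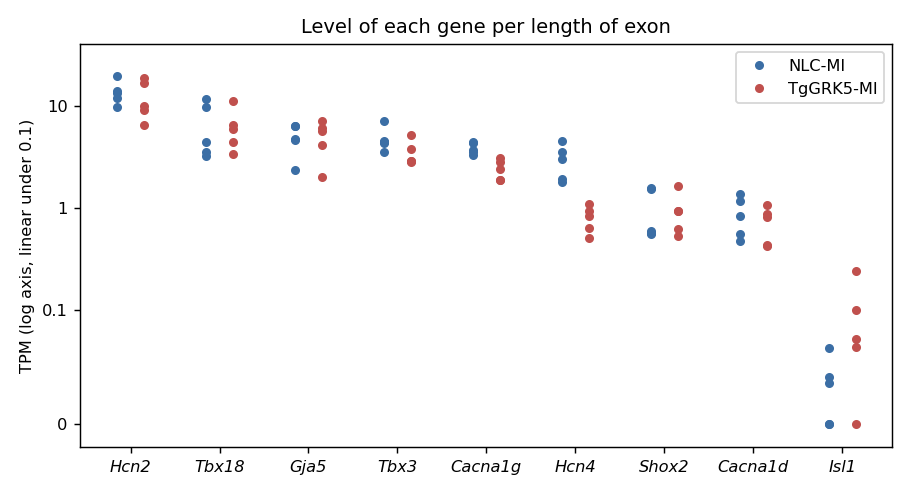
Level of each gene in TPM, per length of exon, on a logarithmic axis that is linear under 0.1. Each point is 1 library, blue for NLC-MI and red for TgGRK5-MI, with the genes in the order of their mean from Hcn2 (12.9 TPM) to Isl1 (0.0630 TPM), and the groups separate for Hcn4 and, on this scale, for Cacna1g.

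Of the 9 genes, 8 passed the filter on low counts, and Isl1 did not. In edgeR's quasi-likelihood test, 2 of the 8 had an unadjusted p under 0.05, where 3.85% of the 15232 genes tested did. Both, Hcn4 and Cacna1g, were lower in TgGRK5-MI, as were 2.08% of all genes tested by this rule, and 0 of the 8 were higher, where 1.77% of all genes tested were. At an adjusted p under 0.10 the count was 0 of 8 in edgeR, where 0.0788% of all genes tested passed. The libraries of the groups did not overlap for 1 of the 8, Hcn4, where this held for 1.00% of all genes tested and, in the lower direction alone, for 0.420%. In bulk RNA, fewer cells of a type and less RNA per cell cannot be told apart.

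**Figure D2:**
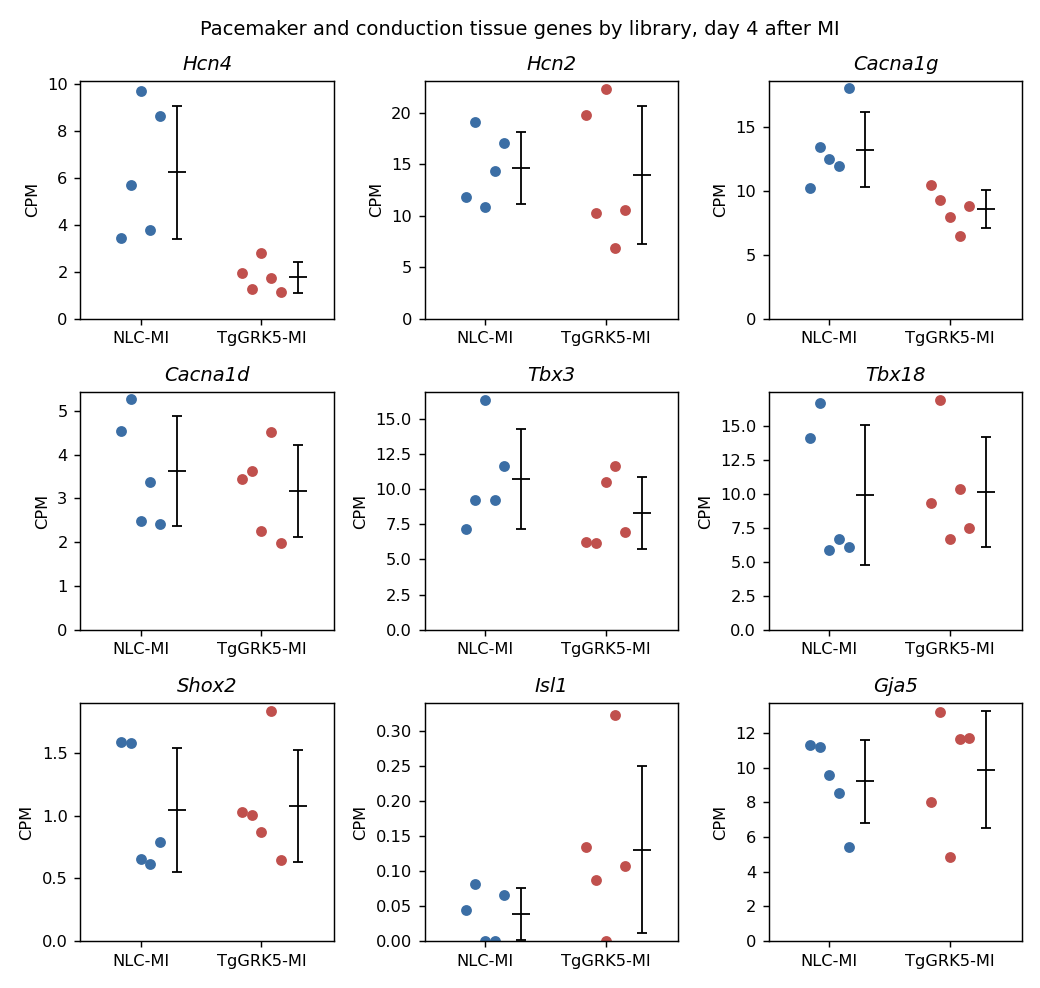
CPM of the 9 genes in each library, with 1 panel per gene and axes that start at 0. Points are libraries, and the bar beside each group gives its mean and SD (n = 5). For Hcn4 the 5 TgGRK5-MI libraries (1.13 to 2.78 CPM) all sit below the 5 NLC-MI libraries (3.44 to 9.68 CPM), and in the other panels the groups overlap.

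Hcn4 (ENSMUSG00000032338, chromosome 9 from 58823412 to 58863175, plus strand) encodes the main pacemaker channel of the sinoatrial node and was the member with the largest difference. It was at 3.44, 5.67, 9.68, 3.75 and 8.64 CPM in NLC-MI replicates 1 to 5, and at 1.92, 1.27, 2.78, 1.72 and 1.13 CPM in TgGRK5-MI replicates 1 to 5. Every TgGRK5-MI library lay below every NLC-MI library. The values rest on 74 to 140 counts per library in NLC-MI and 16 to 43 counts in TgGRK5-MI, all above the floor. The means were 6.24 ± 2.83 and 1.76 ± 0.655 CPM (SD, n = 5 per group), which edgeR fitted as 3.53-fold lower (95% interval 2.05 to 6.08). This is a log2 fold change of -1.82 with a standard error (SE) of 0.36 and, over all genes tested, an edgeR adjusted p = 0.208. The two-sided exact permutation test gave 0.00794, the smallest p that 5 against 5 libraries allow. Hcn4 thus missed the adjusted threshold in edgeR, where it stood at rank 22 of 15232 by p.

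The 2 highest NLC-MI values of Hcn4 came from replicate 3, which had the fewest counts, and replicate 5, which held Bmp10. The remaining 3 of this group, at 3.44 to 5.67 CPM, were still above the highest TgGRK5-MI library at 2.78 CPM. Without the libraries with Bmp10 above 1 CPM, the log2 fold change of Hcn4 was -1.71 (edgeR adjusted p = 0.749), and in the 7 libraries with the most counts alone it was -1.89 (edgeR adjusted p = 0.791), with an unadjusted p under 0.05 in both. The fit without the Bmp10 libraries kept NLC-MI replicate 2, which had 0 counts of Bmp10 but 54.7 CPM of Myl7, another atrial gene. DESeq2 gave Hcn4 an adjusted p of 0.000899. Of the 28443 genes to which it gave a p-value, 0.243% passed 0.10 and 0.0949% passed in the lower direction. DESeq2's default filter on low means leaves fewer genes with an adjusted p, so the shares among those genes would be higher. On simulated counts, 26.1% of DESeq2's calls at 0.10 were false, against 9.36% of edgeR's. These counts were drawn once, with dispersions estimated by edgeR, for the genes that passed its filter. They therefore do not compare the tools on equal terms, and do not bear on the adjusted p of a single gene.

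Hcn2 (ENSMUSG00000020331, chromosome 10 from 79716634 to 79736108, plus strand), the other pacemaker channel gene among the members, encodes a faster gating form and is expressed in working ventricular muscle as well. It was at 11.8, 19.1, 10.9, 14.4 and 17.1 CPM in NLC-MI replicates 1 to 5 and at 19.8, 10.3, 22.3, 6.89 and 10.6 CPM in TgGRK5-MI replicates 1 to 5. The TgGRK5-MI libraries lay both above and below all NLC-MI libraries. Its log2 fold change was -0.07 (SE 0.31, two-sided exact permutation p = 0.627), with a 95% interval from -0.74 to 0.60.

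Among the transcripts of Hcn2, Hcn3 and Hcn4 in a library, as shares of their summed TPM, Hcn4 made up 18.1% ± 8.20 (SD, n = 5) in NLC-MI, from 12.0% to 31.4%. In TgGRK5-MI its share was 6.65% ± 2.60 (SD, n = 5), from 4.78% to 11.2%. Hcn2 made up 81.1% ± 8.47 in NLC-MI and 92.0% ± 3.51 in TgGRK5-MI (SD, n = 5 each). The shares of Hcn4 did not overlap between the groups and those of Hcn2 did, from 67.4% to 87.6% against 85.7% to 94.1%. These shares were not tested on their own, since they restate the values above. Hcn3 had 1 to 7 counts per library and was not tested.

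**Figure D3:**
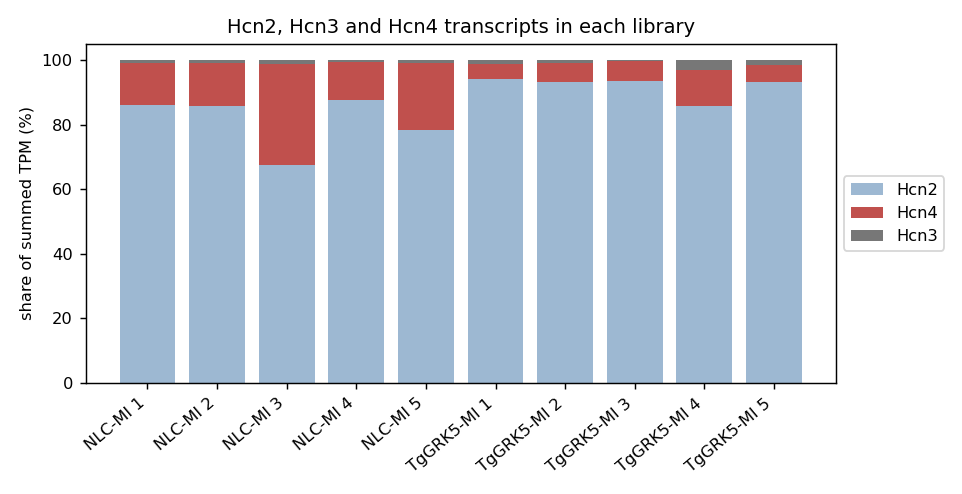
Transcripts of Hcn2, Hcn3 and Hcn4 in each library, as percent of their summed TPM. The red part, Hcn4, is 12.0% to 31.4% in the NLC-MI libraries and 4.78% to 11.2% in the TgGRK5-MI libraries, while Hcn2 (light blue) is the largest part in all 10.

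Cacna1g (ENSMUSG00000020866, chromosome 11 from 94408391 to 94474198, minus strand) encodes a T-type calcium channel, which opens at low voltage and serves pacemaking. It was at 10.3, 13.5, 12.6, 12.0 and 18.1 CPM in NLC-MI replicates 1 to 5 and at 10.5, 9.34, 8.0, 6.46 and 8.81 CPM in TgGRK5-MI replicates 1 to 5. The groups overlapped in CPM by 1 library, TgGRK5-MI replicate 1 being just above NLC-MI replicate 1. The means were 13.3 ± 2.93 and 8.61 ± 1.5 CPM (SD, n = 5 per group). The log2 fold change was -0.62 (SE 0.19, 95% interval -1.04 to -0.20), the two-sided exact permutation test gave p = 0.0159, and the edgeR adjusted p was 0.927. Without the libraries with Bmp10 above 1 CPM it was -0.57, with an unadjusted edgeR p still under 0.05. In the 7 libraries with the most counts it was -0.50, and the unadjusted edgeR p was no longer under 0.05.

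The other T-type channel of the heart, Cacna1h, was lower as well, with NLC-MI libraries at 3.92 to 6.68 CPM and TgGRK5-MI libraries at 2.15 to 3.58 CPM, without overlap. Its log2 fold change was -0.86 (SE 0.22, exact permutation p = 0.00794, edgeR adjusted p = 0.548, DESeq2 adjusted p = 0.0852). With both genes lower, the share of Cacna1g among the T-type transcripts was 71.2% ± 1.27 in NLC-MI and 74.1% ± 5.33 in TgGRK5-MI (SD, n = 5 each).

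Cacna1d (ENSMUSG00000015968, chromosome 14 from 30039939 to 30491455, minus strand) encodes the L-type channel of pacemaker cells. It was a minor part of the L-type transcripts here, at 2.99% ± 1.91 of the summed TPM of Cacna1c, Cacna1d and Cacna1s in NLC-MI and 3.40% ± 1.58 in TgGRK5-MI (SD, n = 5 each). It was at 4.54, 5.26, 2.49, 3.38 and 2.42 CPM in NLC-MI replicates 1 to 5 and at 3.44, 3.62, 2.26, 4.52 and 1.99 CPM in TgGRK5-MI replicates 1 to 5. The groups overlapped over most of their range, and the log2 fold change was -0.22 (SE 0.30, exact permutation p = 0.540, 95% interval -0.87 to 0.43). In limma-voom with quality weights it was -0.60 with an unadjusted p under 0.05, and in edgeR without NLC-MI replicate 2 it was -0.041. The main L-type channel of working cardiomyocytes, Cacna1c, averaged 210.4 ± 74.1 CPM in the NLC-MI libraries against 123.4 ± 28.1 CPM in the TgGRK5-MI libraries (SD, n = 5 per group). This gave a log2 fold change of -0.77 (SE 0.26, exact permutation p = 0.0476, edgeR adjusted p = 1.00).

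Tbx3 (ENSMUSG00000018604, chromosome 5 from 119670669 to 119684724, plus strand) encodes a repressor that keeps the gene program of working muscle off in the node. It was at 7.18, 9.19, 16.4, 9.20 and 11.7 CPM in NLC-MI replicates 1 to 5. In TgGRK5-MI replicates 1 to 5 it was at 6.22, 6.20, 10.5, 11.6 and 6.93 CPM. In TgGRK5-MI, 3 libraries were below all NLC-MI libraries and the others were among them. For Tbx3 the log2 fold change was -0.37 (SE 0.27, exact permutation p = 0.214, 95% interval -0.95 to 0.21), and with NLC-MI replicate 3 left out it was -0.18. An unadjusted p under 0.05 was reached with library size as a covariate, with 1 surrogate variable and in the 7 libraries with the most counts, and in none of the other alternatives. An antisense gene, Tbx3os1, shares 115 exon bases with it on the opposite strand.

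Tbx18 (ENSMUSG00000032419, chromosome 9 from 87702800 to 87731260, minus strand) marks the progenitors of the node's head and is also made by epicardium and mural cells. It was at 14.1, 16.7, 5.89, 6.71 and 6.09 CPM in NLC-MI replicates 1 to 5. In TgGRK5-MI replicates 1 to 5 it was at 9.30, 16.9, 6.69, 10.3 and 7.46 CPM. Both groups held libraries near the top and near the bottom of the range. For Tbx18 the log2 fold change was 0.03 (SE 0.35, exact permutation p = 0.802, 95% interval -0.75 to 0.80), and its sign turned in some of the alternatives.

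Shox2 (ENSMUSG00000027833, chromosome 3 from 66971727 to 66981771, minus strand) encodes a factor that holds back Nkx2-5 in the node. It had 5 to 39 counts per library in NLC-MI and 10 to 23 in TgGRK5-MI. Its means were 1.04 ± 0.497 and 1.08 ± 0.449 CPM (SD, n = 5 per group), with libraries from 0.61 to 1.59 CPM and from 0.64 to 1.83 CPM. Its log2 fold change was -0.05 (SE 0.38, exact permutation p = 0.849), and its sign turned in some of the alternatives. Isl1 (ENSMUSG00000042258, chromosome 13 from 116298281 to 116309689, minus strand) encodes a factor of the node and of cardiac neurons. It had 1, 2, 0, 0 and 1 counts in NLC-MI and 3, 2, 0, 3 and 2 counts in TgGRK5-MI. All of these are at or under the floor of 3 counts, so no fold is given and a difference was not detectable at this depth (two-sided exact permutation p = 0.127).

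Gja5 (ENSMUSG00000057123, chromosome 3 from 96904693 to 97077416, plus strand) encodes the connexin of the atria, the fast conduction system and arterial endothelium. It was at 11.3, 11.2, 9.55, 8.54 and 5.43 CPM in NLC-MI replicates 1 to 5. In TgGRK5-MI replicates 1 to 5 it was at 8.01, 13.2, 4.87, 11.6 and 11.7 CPM. The groups overlapped, and the log2 fold change was 0.10 (SE 0.28, exact permutation p = 0.825, 95% interval -0.51 to 0.72). By TPM it was 2.59% ± 1.11 of the transcripts of Gja1, Gja5, Gjc1 and Gjd3 in NLC-MI and 2.91% ± 1.54 in TgGRK5-MI (SD, n = 5 each), where Gja1, the connexin of working muscle, made up 88.0% in each group. Gja1 and Gjc1, a connexin gene of nodal cells, each had a log2 fold change of -0.05 (SE 0.23 and 0.14), with exact permutation p-values of 0.881 and 0.651.

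Besides Tbx3, 4 of the 9 genes share exon bases with a gene on the opposite strand: Tbx18 (970 bases, D030062O11Rik), Shox2 (153 bases, Rsrc1), Cacna1d (589 bases, Chdh) and Gja5 (165 bases, Gpr89). The strand setting of the counting is not given in the sources used here, so reads on these bases cannot be told apart without it. Hcn4, Hcn2, Cacna1g and Isl1 share no exon bases with another gene.

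**Figure D4:**
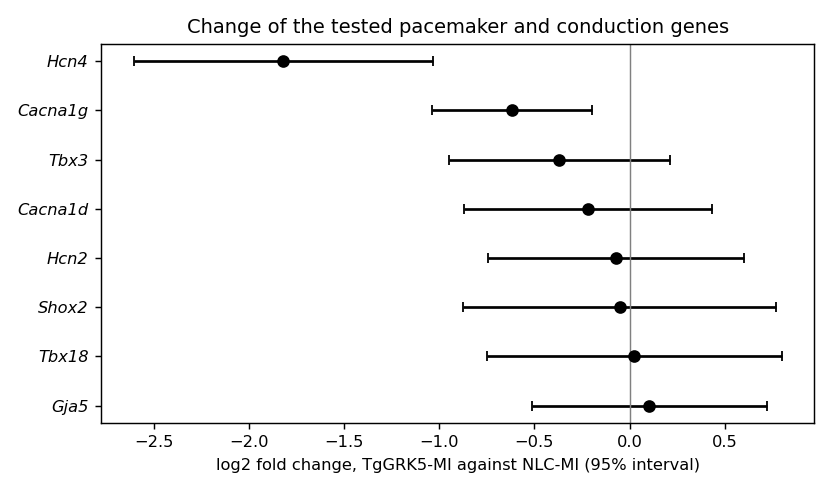
Log2 fold change of the 8 tested genes, TgGRK5-MI against NLC-MI, from edgeR, with 95% intervals as bars (n = 5 libraries each). The intervals of Hcn4 (-2.61 to -1.03) and Cacna1g (-1.04 to -0.20) lie below 0, and the other 6 include 0.

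Other genes of pacemaking, conduction and their regulation were taken from a hand-written list of 44 genes, of which 40 were tested. The list was written with earlier results of these data known, so its counts are a description and not a test of the list. By edgeR, 9 of the 40 were lower and 2 were higher at an unadjusted p under 0.05, beside 2.08% and 1.77% of all genes tested, and 1 passed at an adjusted p under 0.10. Of the 40, 30 had a negative log2 fold change, and the median was -0.21. Over all genes tested, 7586 were negative and 7646 positive, and the median was 0.00. Without the libraries with Bmp10 above 1 CPM, 6 were lower and 1 was higher. Genes with long exons leaned lower as a whole, from a median log2 fold change of 0.11 in the shortest of 10 bins by exon length to -0.08 in the longest. Cacna1g and Cacna1d are in bin 10, the longest, and Hcn4 is in bin 8, whose median was -0.03. The median exon length was 5762.5 bases over the 40 genes of the wider list, against 4213 over 15204 of the genes tested. The part of length in these results was not tested.

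Channel and calcium handling genes were among the lower genes of this list. Besides Cacna1h and Cacna1c, given above, they included Ryr2, the calcium release channel of the sarcoplasmic reticulum (log2 fold change -0.93, exact permutation p = 0.0476) and Kcnj3, a subunit of the acetylcholine-gated potassium channel (-0.87, p = 0.103). Others were the transcription factor gene Tbx20 (-0.54, exact permutation p = 0.0159), Hopx, which encodes a homeodomain protein without DNA binding of its own (-0.62, p = 0.0556), and Cntn2, a marker of the Purkinje network (-0.69, p = 0.0476). The adjusted p of all 9 lower genes was 0.548 or more in edgeR, while Cacna1h passed 0.10 in DESeq2, as given above. DESeq2 made more false calls than edgeR on simulated counts, which were drawn with edgeR's own dispersions. Cacna1h, Ryr2, Cacna1c and Tbx20 kept an unadjusted edgeR p under 0.05 with each library left out in turn. In contrast, Kcnj3, Hopx and Cntn2 lost it in 5, 6 and 7 of the 10 such fits, each time with the highest p when NLC-MI replicate 5 was left out.

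The 2 higher genes were Kcne1, the regulatory subunit of the slow delayed rectifier potassium channel (log2 fold change 1.23, edgeR adjusted p = 0.0787), and Adcy1, an adenylyl cyclase stimulated by calcium and made in the node (0.95, exact permutation p = 0.119, edgeR adjusted p = 1.00). Adcy1 lost its call in 4 of the 10 fits with a library left out, namely NLC-MI replicates 1, 4 and 5 and TgGRK5-MI replicate 1. Transcription factors that work with the members did not pass, with log2 fold changes of -0.21 for Nkx2-5 (exact permutation p = 0.325) and -0.67 for Tbx5 (p = 0.222). Popdc2, a cyclic AMP binding protein with a part in heart rate control, had -0.36 (exact permutation p = 0.333).

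Markers of atrial muscle were looked at beside Hcn4 and Cacna1g, since both genes are also made there. Myl7, the atrial regulatory light chain, was at 20.7, 54.7, 12.8, 12.4 and 64.0 CPM in NLC-MI against 24.2, 14.3, 9.04, 3.66 and 16.8 CPM in TgGRK5-MI. The groups overlapped, and its log2 fold change was -1.27 (exact permutation p = 0.143, edgeR adjusted p = 1.00). It was -0.70 for Sln (exact permutation p = 0.238) and -0.83 for Myl4 (p = 0.159). Of the 8 atrial markers, 6 were tested, and all 6 had a negative log2 fold change with a median of -0.68. Among them 1, Myl7, had an unadjusted edgeR p under 0.05, as did 2.08% of all genes tested in the lower direction. Bmp10, given above, was not tested. The summed level of the list ran from 3360 to 14148 TPM in NLC-MI and from 2759 to 11979 TPM in TgGRK5-MI, most of it Nppa, which infarcted ventricles also make. Without Nppa, a choice made after its values were seen, the sum ran from 110.2 to 410.4 TPM in NLC-MI and from 53.5 to 189.5 TPM in TgGRK5-MI. NLC-MI replicates 1, 3 and 4 were within the TgGRK5-MI range of this sum and had 3.44, 9.68 and 3.75 CPM of Hcn4, above all TgGRK5-MI libraries. NLC-MI replicates 2 and 5 were above that range, at 406.4 and 410.4 TPM, and had 5.67 and 8.64 CPM of Hcn4. The part of atrial RNA in the lower Hcn4 and Cacna1g was not tested beyond these values.

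For the members that other cell types of the heart also make, each gene's log2 CPM was set against the log2 summed TPM of 8 marker lists over the 10 libraries, with the member itself left out of the sum. There were 64 such relations, tested by permutation (100000 resamples, two-sided) with Benjamini-Hochberg adjustment over all 64. Tbx18 went with the fibroblast markers (r = 0.932, permutation adjusted p = 0.0093, rho = 0.903, adjusted p = 0.019), and r was 0.889 without the 2 libraries farthest from the median. It also went with the macrophage markers (r = 0.876, rho = 0.915, permutation adjusted p = 0.027 and 0.019) and, by r, with the epicardial markers (r = 0.849, rho = 0.818, permutation adjusted p = 0.040 and 0.053). Without the 2 farthest libraries these r were 0.818 and 0.824. Libraries rich in fibroblast RNA were thus those with high Tbx18 in both groups.

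Gja5 went with the arterial endothelial markers by r (r = 0.930, permutation adjusted p = 0.0093) and not past the threshold by rank (rho = 0.758, adjusted p = 0.10), and r was 0.740 without the 2 farthest libraries. It ran against the ventricular cardiomyocyte markers (r = -0.87, rho = -0.915, permutation adjusted p = 0.012 and 0.019, r = -0.888 without the 2 farthest). Cacna1d went with the fibroblast markers (r = 0.823, rho = 0.879, permutation adjusted p = 0.040 and 0.024, r = 0.699 without the 2 farthest) and, by r, with the epicardial markers (r = 0.876, rho = 0.818, permutation adjusted p = 0.027 and 0.053, r = 0.856 without the 2 farthest). Hcn2 ran against the endothelial markers by r (r = -0.811, permutation adjusted p = 0.040), while by rank the adjusted p was 0.18 (rho = -0.648), and r was -0.818 without the 2 farthest libraries. None of the 8 relations of Hcn4, or of Cacna1g, Tbx3 or Shox2, passed an adjusted p of 0.05, the threshold used for these relations. Nearest among these was Tbx3 against the macrophage markers (r = -0.785, rho = -0.830, permutation adjusted p = 0.057 and 0.053). By r, Gja5 was also under 0.10 with the atrial, fibroblast, endothelial and mural markers (permutation adjusted p = 0.057, 0.057, 0.066 and 0.085), though not by rank. The atrial sum in these relations was mostly Nppa. The atrial sum without Nppa was not tested against any member, so the relation of Hcn4 to the other atrial markers was not tested. Values of a library share its depth and its mix of cells, so these relations do not place a transcript in a cell type.

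**Figure D5:**
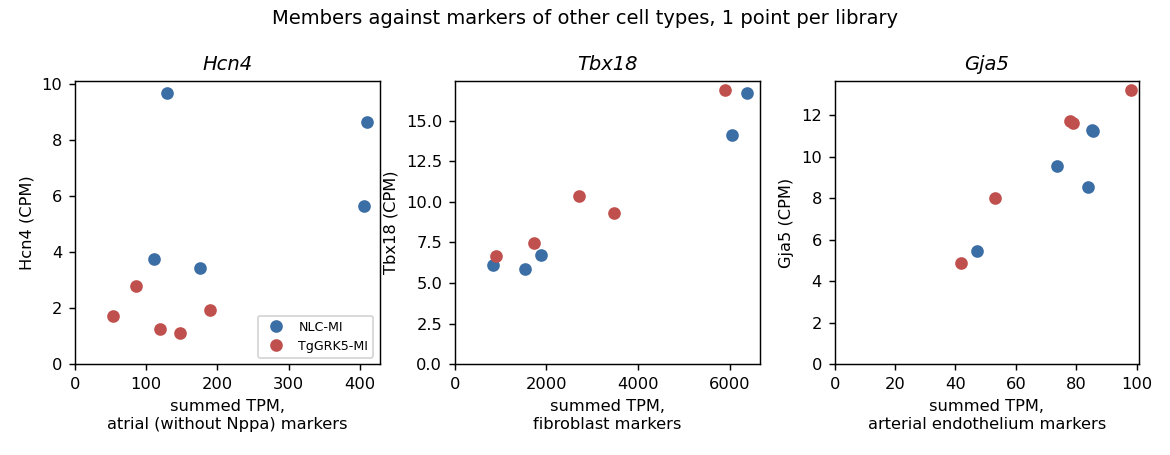
Hcn4, Tbx18 and Gja5 in CPM against the summed TPM of atrial (without Nppa), fibroblast and arterial endothelial markers, with 1 point per library, blue for NLC-MI and red for TgGRK5-MI. Tbx18 and Gja5 rise with their marker sums in both groups. All NLC-MI points of Hcn4 lie above all TgGRK5-MI points. NLC-MI replicates 2 and 5 (406.4 and 410.4 TPM) lie above the TgGRK5-MI range of the atrial sum.

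At an unadjusted p under 0.05 in edgeR, 0 of 6 fibroblast, 0 of 6 macrophage and 0 of 6 endothelial markers were called. The same held for 0 of 7 arterial endothelial and 0 of 6 epicardial markers. The share of all genes tested was 3.85%, so 0 in lists this short is near it. All 6 macrophage markers had a positive log2 fold change (median 0.20), as did 5 of 6 epicardial (0.32) and 5 of 7 arterial endothelial markers (0.06). Fibroblast and endothelial markers had 3 positive each (0.09 and -0.03). These signs were not tested. Of the 7 mural cell markers 2 were lower, Cspg4 (log2 fold change -0.62) and Abcc9 (-0.67), beside 2.08% of all genes tested. The summed mural level overlapped between the groups, from 379.5 to 578.2 TPM in NLC-MI and from 322.6 to 568.9 TPM in TgGRK5-MI. The summed fibroblast level ran from 838.5 to 6378 TPM in NLC-MI and from 903.8 to 5898 TPM in TgGRK5-MI, and the macrophage level from 996.3 to 3852 TPM and from 1521 to 4101 TPM. Of the cardiac neuron markers, Chat had 0 counts in all 10 libraries and only Dbh passed the filter, with means of 2.99 and 1.63 CPM and an unadjusted p over 0.05. Of the 5 Schwann cell markers 4 were tested, and 0 had an unadjusted p under 0.05, beside 3.85% of all genes tested.

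The 5 genes whose log2 CPM was most like that of Hcn4 over the 10 libraries were Sbk2 (Pearson r = 0.951), Ankrd11 (0.950), Ttc25 (0.949), Lysmd4 (0.942) and 2210407C18Rik (0.937). They are the highest of all 15232 genes tested and are a description. Within the groups, after each group's mean was taken out, r was from 0.744 for 2210407C18Rik to 0.917 for Ankrd11. Of the 5, Sbk2, Lysmd4 and 2210407C18Rik did not overlap between the groups. The gene 2210407C18Rik, with means of 33.2 ± 16.9 and 7.01 ± 1.26 CPM (SD, n = 5 per group), had an edgeR adjusted p = 0.0506.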

How the data were processed

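RNA of cardiomyocytes from 5 NLC-MI and 5 TgGRK5-MI mice, 1 library per mouse as the labels number them, was prepared by the authors with a TruSeq RNA v2 kit. The authors deposited whole-number counts per Ensembl gene for 51789 genes, without normalization. The submitters' processing notes name Bowtie2, RSEM 1.2.31, DESeq2 and mm10. RSEM gives estimated counts, so the deposited whole numbers may have been rounded. The strand setting and the annotation used for counting are not given in the sources used here.

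Symbols, positions and exon lengths were those of GENCODE M21 (GRCm38), where 51596 identifiers were found. In R 4.3.3 with edgeR 4.0.16, counts were normalized with TMM and filtered with filterByExpr by group, which left 15232 genes, and tested with the quasi-likelihood F test, TgGRK5-MI against NLC-MI, with p-values adjusted by Benjamini and Hochberg's method over all genes tested. Calls were counted at an adjusted p under 0.10 and an unadjusted p under 0.05, and the marker relations were read at an adjusted p under 0.05. Single genes were also tested with the two-sided exact permutation test of mean log2 CPM (prior count 2). TPM values are counts per union exon length, scaled to the same sum in every library. A 95% interval is that of the estimated difference between the groups. The p-values of the group comparison weigh that difference against the spread between these 5 and 5 libraries. The tests were checked on counts simulated once, with dispersions estimated by edgeR for the genes that passed its filter. There DESeq2 made more false calls than edgeR or limma-voom, but the tools were not compared on equal terms.

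The members, the gene lists and the tests were chosen with earlier results of these data known. The genes named are all members, Grk5, genes of the wider list with an unadjusted p under 0.05, paralogs and partners of members, leading markers of each cell type, and the 5 genes most like Hcn4. Stated exceptions aside, Nppa, Abcc9, Chat and the genes that overlap members are named for a count or a level. Results for some items, which the counts over the lists include, are not reported here. Promoter windows came from RefSeq on GRCm38.p6. Alternatives were RLE size factors, library size alone, 2 other filters (10 counts in every library, and none), DESeq2 1.42.0, limma-voom (limma 3.58.1) with quality weights, robust and legacy fits, a prior count of 0.5, the replicate number as a block, covariates (library size, Xist and Y-linked expression, 1 surrogate variable from sva 3.50.0), and each library left out. The 7 libraries with the most counts, and the libraries without Bmp10, were chosen after seeing the data.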

Additional observations from a re-analysis of the deposited data

Results flagged for a closer look

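Within the groups of 5 libraries, 7 of the 106 groups of values examined had a library far from the others by Dixon's limit of 0.71, and chance alone gives about 1 in 20. None of the 9 pacemaker and conduction genes was among them. In NLC-MI replicate 3, the library with the fewest counts, Kcne1 was at 16.5 CPM and Kdr, an endothelial receptor, at 252.4 CPM, each the highest of its group. In NLC-MI replicate 5, Hopx was at 291.0 CPM, the ventricular light chain gene Myl2 at 12468 CPM and Bmp10 at 30.9 CPM. Bmp10 was also at 5.64 CPM in TgGRK5-MI replicate 1. In TgGRK5-MI replicate 3, Nkx2-5 was at 98.6 CPM.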

How the results depend on the processing

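Hcn4 was lower with an unadjusted p under 0.05 in all 24 alternatives, and with each library left out its log2 fold change ran from -2.04 to -1.62. It passed an adjusted p of 0.10 in 4 alternatives: DESeq2 (-1.84, adjusted p = 0.000899), limma-voom (-1.63, adjusted p = 0.0586), library size as a covariate (-1.82, adjusted p = 0.0892) and 1 surrogate variable (-1.88, adjusted p = 0.0494). Its adjusted p over all alternatives ran from 0.000899 to 0.791. The count of members with an unadjusted p under 0.05 stayed at 2 or 3. The count of the wider list ran from 8 to 14, except 7 without the libraries with Bmp10. The count of all genes at an adjusted p under 0.10, 12 in the main test, was 69 in DESeq2, 50 in limma-voom, 7 in the legacy fit, 20 with library size as a covariate, 4 with Xist and Y-linked expression, 21 with 1 surrogate variable, 6 in the 7 libraries with the most counts, 4 without the libraries with Bmp10, and 3 to 10 with each library left out, where leaving out NLC-MI replicate 3, NLC-MI replicate 5 or TgGRK5-MI replicate 2 kept it within 1.5 times. The cause was not tested. Genes near 0 changed sign: Tbx18 to -0.397 in limma-voom, -0.311 with Xist and Y-linked expression and -0.0811 without the libraries with Bmp10, and Gja5 to -0.0943 in limma-voom. With each library left out, Hcn2 ran from -0.308 to 0.0968, Tbx18 from -0.241 to 0.298, Gja5 from -0.0434 to 0.266 and Shox2 from -0.281 to 0.155. Shox2 has no value under the filter of 10 counts in every library.

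Same-numbered libraries were not paired by the labels, and the correlation of their deviations was 0.0717, 0.662, 0.381, -0.341 and 0.0848, with 1 of 5 libraries correlating best with its own number. With the replicate number as a block, Hcn4 was -1.77, Shox2 changed sign to 0.0030, 8 genes passed an adjusted p of 0.10, and the counts of 2 members and 11 genes of the wider list were the same. Depth limits Isl1 and Hcn3, and leaves Shox2 with 5 to 39 counts.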
